A study of Mus musculus with 2931 samples.

Results

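The 9 genes described here, H2-K1, H2-D1, H2-Q4, H2-Q6, H2-Q7, H2-T22, H2-T23, B2m and Tap1, belong to the major histocompatibility complex (MHC) class I pathway and were taken by their symbols from the 18072 genes of the count table. They were selected on earlier results of these data: H2-Q7 had passed the test of hyperoxia at P7 in Car4- capillaries, and its neighbours were looked at after it. The hyperoxia values are therefore given as a description. The choice also used the Car4- capillaries of the normal-air P7 mice as its baseline, so comparisons that take these mice (P7 against P1, P21 against P7, and subtypes within mice) are not independent of it, least of all for H2-Q7. P21 against P1 and E18.5 against P1 do not compare those values, and proliferative and venous EC at P7 are other cells of the same mice. The models with Car4- capillaries take their spread from all groups, the P7 mice in normal air and hyperoxia among them. The p-values of P21 against P1 and of E18.5 against P1 are therefore not free of the choice either, least of all for H2-Q7. The data are read counts of 2931 single endothelial cells (EC) of the distal mouse lung, 2694 of them from the CD31 gate of the sort, in 5 groups of 1 female and 1 male mouse each: 4 groups breathing normal air, namely embryos of day E18.5 and pups of postnatal days P1, P7 or P21, and 1 group at P7 exposed to hyperoxia, meaning air with raised oxygen. The oxygen level, its duration, the strain and the MHC haplotype are not in the labels, nor is it stated whether a mouse name is 1 animal or a pool, so p-values measure the spread between these mouse names. A mouse had 212 to 359 cells and 56564316 to 331392982 reads, with the lowest depth in the male mouse of P7. The subtype names are the authors' labels, how they were made is not given in the sources used here, and the labels Early and Late Car4- capillaries were joined here.

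MHC class I molecules carry short peptides to the cell surface, where CD8 T cells and natural killer cells read them. H2-K1 and H2-D1 encode classical heavy chains, and B2m encodes beta-2 microglobulin, the light chain that every one of these heavy chains pairs with. H2-Q6 and H2-Q7 encode forms of the nonclassical molecule Qa-2, H2-T23 encodes Qa-1, a ligand of the natural killer cell receptor CD94/NKG2A, and H2-T22 encodes a ligand of gamma delta T cells. Tap1 encodes a part of the transporter that moves peptides from the cytosol into the endoplasmic reticulum for loading. The class I promoters are known to hold kappa B, interferon-response and cyclic AMP-response (CRE) type elements, and interferon is known to raise these genes.

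On GRCm38, in the GENCODE M21 annotation, 8 of the 9 genes lie on chromosome 17 and B2m lies on chromosome 2 (122147686 to 122153083). H2-K1 spans 33996017 to 34000347, Tap1 34187553 to 34197225, H2-D1 35262730 to 35267499, H2-Q4 35379617 to 35385290, H2-Q6 35424850 to 35430055, H2-Q7 35439155 to 35443773, H2-T23 36029773 to 36032855 and H2-T22 36037128 to 36042747. The following promoter stretches (RefSeq, GRCm38.p6, all 9 genes matched) are shown because H2-K1, H2-D1, H2-Q6 and H2-Q7 look alike there and differ from H2-T23 and B2m. They are written 5′ to 3′ in the direction of the gene, and capitals mark the motifs GGGATTCCC, GAAGTGAAA, GAAANNGAAA, TGACG and CCAAT, on either strand.
H2-K1 (chr17:34000349-34000467, minus strand): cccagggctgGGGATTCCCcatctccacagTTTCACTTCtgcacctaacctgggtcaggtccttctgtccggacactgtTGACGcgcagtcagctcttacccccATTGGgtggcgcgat
H2-D1 (chr17:35262914-35263055, plus strand): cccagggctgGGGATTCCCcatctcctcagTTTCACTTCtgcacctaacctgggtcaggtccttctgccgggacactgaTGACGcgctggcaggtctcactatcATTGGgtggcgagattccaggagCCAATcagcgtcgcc
H2-Q6 (chr17:35424668-35424809, plus strand): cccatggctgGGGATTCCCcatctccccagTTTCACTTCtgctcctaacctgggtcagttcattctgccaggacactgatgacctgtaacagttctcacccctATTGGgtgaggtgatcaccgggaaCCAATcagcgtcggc
H2-Q7 (chr17:35439013-35439153, plus strand): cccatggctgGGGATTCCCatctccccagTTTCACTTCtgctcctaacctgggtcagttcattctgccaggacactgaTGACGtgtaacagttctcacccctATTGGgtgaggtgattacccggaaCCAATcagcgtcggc
H2-T23 (chr17:36032739-36032835, minus strand): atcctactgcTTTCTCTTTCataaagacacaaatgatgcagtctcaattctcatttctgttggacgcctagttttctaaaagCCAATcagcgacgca
B2m (chr2:122147538-122147648, plus strand): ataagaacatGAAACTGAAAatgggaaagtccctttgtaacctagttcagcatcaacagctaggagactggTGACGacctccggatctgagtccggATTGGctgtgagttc

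The motifs were searched in the 250 bases before the annotated start of 27025 RefSeq promoters. RefSeq and GENCODE starts differ, and the stretches printed for H2-D1 and H2-T23 lie inside the GENCODE gene spans given above. For a gene with more than 1 RefSeq promoter, such as H2-K1 with 2, the first listed was used. The kappa B type motif GGGATTCCC was in H2-K1, H2-D1, H2-Q6 and H2-Q7 and in 0.311% of all promoters. The interferon-response type motif GAAGTGAAA, printed on the other strand as TTTCACTTC and chosen after these promoters had been seen, was in those 4 genes and in H2-Q4, and in 0.429% of all promoters. The related GAAANNGAAA was in H2-T22, H2-T23 and B2m and in 3.04% of all promoters. The CRE core TGACG was in 7 of the 9 genes (all but H2-Q6 and H2-T23) and in 17.9% of promoters, and CCAAT was in all 9 and in 34.5%. A match describes these letters only and draws nothing about the factors.

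The nearly identical members of the family limit how far reads can be told apart. Of all 50-base windows of its transcript, H2-Q7 shared 34.9% with transcripts of other genes (19.3% with H2-Q6), H2-Q6 shared 35.0%, H2-Q4 39.2%, H2-T22 44.7% (37.9% with H2-T10) and H2-T23 29.8%. H2-D1 shared 14.3%, H2-K1 8.79%, Tap1 6.47% and B2m 0. The Q and T region values are thus uncertain as to the gene, and Tap1 overlaps the start of Psmb9 on the opposite strand.

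The endothelial markers Pecam1, Cdh5, Tie1 and Emcn were present in every class, at 1343 to 8462 summed CPM (counts per 1000000 reads) in sums of at least 8 cells. The subtype markers were above every other sum in 8 of 8 sums labelled Car4+, 8 of 8 proliferative, 8 of 9 venous, 7 of 7 arterial I and 4 of 4 lymphatic, but in 4 of 9 sums labelled Car4-, so the Car4- label is less well set apart by its markers. Values below are CPM of the reads summed over a mouse's cells of a class, given for the female and then the male mouse.

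In Car4- capillaries, the general capillary cells (1463 of the 2931 cells), all 9 genes had higher values in both mice of P21 than in both mice of P1. This held for 20.7% of the 14660 genes tested. H2-Q7 and H2-K1 passed the test. H2-K1 was at 417.5 and 351.5 CPM at P1, 940.4 and 857.5 at P7 and 2339 and 1913 at P21. The 3 ages did not overlap, and P21 was above P1 by a log2 fold change of 2.48 ± 0.36 (SE, 2 mice against 2, adjusted p = 0.0135 with edgeR's quasi-likelihood test and Benjamini-Hochberg adjustment). H2-Q7 was at 38.5 and 33.7 CPM at P1, 169.5 and 150.8 at P7 and 269.2 and 244.4 at P21, again without overlap. Its log2 fold change from P1 to P21 was 2.85 ± 0.39 (edgeR adjusted p = 0.0103). Of all genes tested, 0.368% were called in this comparison, against 2 of the 9. Leaving out the male mouse of P1 or the male mouse of P21 ended both calls (edgeR adjusted p of 0.0562 and 0.0551 for H2-Q7 and 0.0520 and 0.0705 for H2-K1), with log2 fold changes of 2.89 and 2.82 for H2-Q7 and 2.49 and 2.53 for H2-K1. The label also changes over this interval, since Early Car4- cells make up most of P1 and P7 and Late Car4- cells most of P21. In the female mouse of P7, which had both, H2-K1 was at 997.9 CPM in 162 Early cells and 543.0 in 44 Late cells, and H2-Q7 at 167.2 and 185.2.

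The other classical heavy chain, H2-D1, had 1480 and 1746 CPM at P1, 2014 and 2246 at P7 and 4206 and 2985 at P21, a log2 fold change from P1 to P21 of 1.14 ± 0.39 that was not called. B2m went from 1705 and 2069 CPM at P1 to 1421 and 1451 at P7 and 3639 and 4428 at P21, so its P7 values were below both other ages. H2-T23 had the same order, with 144.3 and 118.9 CPM at P1, 60.0 and 79.1 at P7 and 228.5 and 198.0 at P21. At P7 the values of H2-K1 were above those of P1 and the values of B2m and H2-T23 below them, with no overlap between the mice in any of the 3 genes. Of all genes tested, 21.1% were higher in both P7 mice than in both P1 mice, and the share lower in both was not counted. None of the 3 genes was called in this step, and B2m had a log2 fold change of −0.52 ± 0.41. H2-Q7 was above P1 too, but its P7 values are those it was selected on.

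H2-Q6 was uneven at P1, with 31.7 CPM in the female and 0.403 in the male mouse, and was at 74.0 and 60.6 at P7 and 223.7 and 195.6 at P21. H2-Q4 was at 10.8 and 8.22 CPM at P1, 11.2 and 5.20 at P7 and 29.2 and 15.4 at P21. H2-T22 was at 42.8 and 36.4 CPM at P1, 50.9 and 64.9 at P7 and 89.3 and 83.1 at P21. Tap1 had wide mouse differences at each age, with 62.8 and 23.5 CPM at P1, 92.2 and 51.7 at P7 and 106.9 and 70.0 at P21. None of H2-D1, B2m, H2-T22, H2-T23, H2-Q4, H2-Q6 and Tap1 passed the test from P1 to P21, although 5 of these 7 had an unadjusted p under 0.05, as had 13.5% of all genes tested.

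**Figure D1:**
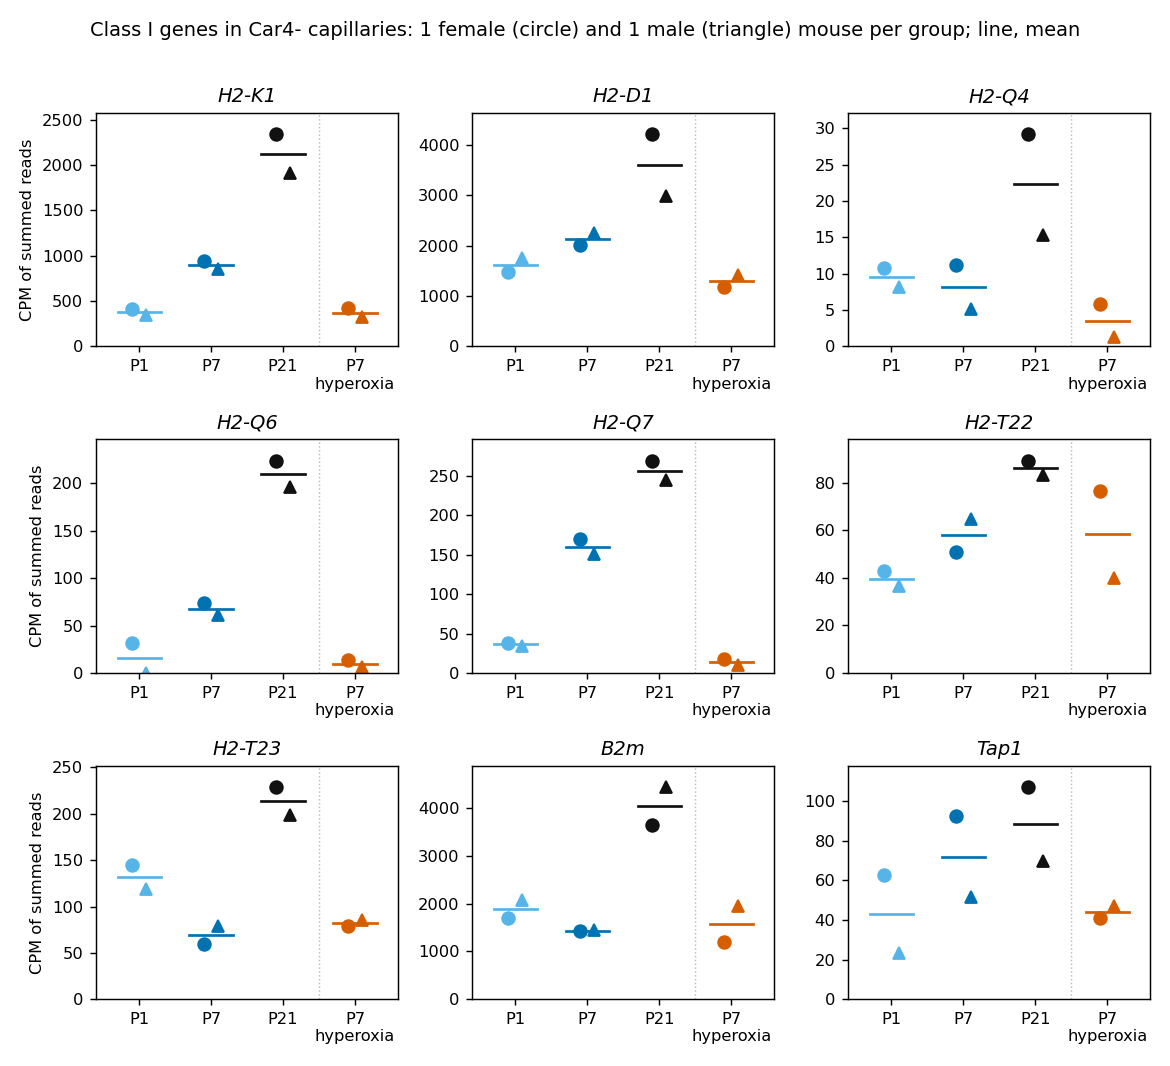
CPM of the 9 class I genes (linear axes) in Car4- capillaries by group; each point is 1 mouse (circle female, triangle male) and each line the mean of 2 mice. Both P21 mice sit above both P1 mice in every panel, while B2m and H2-T23 are lowest at P7 among the normal-air ages, and H2-Q7 is at 17.2 and 10.01 under hyperoxia.

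For P21 against P7, 8 of the 9 genes were higher in both P21 mice, as were 19.7% of all genes tested. No gene of the 9 was called by edgeR (0.266% of all genes were), with 4 at an unadjusted p under 0.05 (1542 of the 14660 genes) and 3 called by DESeq2. H2-T23 had the lowest p of the 9, with a log2 fold change of 1.73 ± 0.35 (edgeR adjusted p = 0.0801), followed by H2-K1 with 1.35 ± 0.35 and B2m with 1.62 ± 0.42 (edgeR adjusted p = 0.179 and 0.182). For P7 against P1, 5 of the 9 genes were higher in both P7 mice, as were 21.1% of all genes. EdgeR called 0% of all genes in that comparison and hence none of the 9, with 3 at an unadjusted p under 0.05 (11.3% of all genes) and 2 called by DESeq2. The fold changes there were 2.05 ± 0.38 for H2-Q7, 1.13 ± 0.35 for H2-K1 and −1.02 ± 0.35 for H2-T23 on the log2 scale.

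Some of these differences can be read within 1 sequencing run, since the CD31-sorted female cells of P1 and P21 shared a run, as did the male cells of P7 and P21. In the female run, H2-Q7 was at 39.3 CPM in 180 cells of P1 and 289.6 in 221 cells of P21, and H2-K1 was at 425.4 and 2326. In the male run, H2-K1 was at 1063 CPM in 111 cells of P7 and 1998 in 184 cells of P21, and B2m at 1571 and 4629. H2-Q7 differed little in the male run, with 179.5 CPM at P7 and 215.1 at P21. The CD31-sorted cells of P1 and P7 shared no run, so no value within a run is given for that step.

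Markers of other cells were low but not absent. The summed CPM of 10 leukocyte markers in Car4- capillaries was 18.4 and 33.0 at P1, 10.8 and 38.3 at P7 and 28.4 and 26.0 at P21, with Nkg7 at 0 in both mice of P21. The sum of 5 epithelial markers was larger, at 75.1 and 89.2 CPM at P1, 26.0 and 62.2 at P7 and 131.0 and 179.9 at P21, without overlap and in the same order of ages as B2m and H2-T23. The sum of 7 mesenchymal markers was at 8.97 to 33.7 CPM over these mice. The 5 MHC class II markers (H2-Aa, H2-Ab1, H2-Eb1, Cd74 and Ciita) were higher at each later age, as were H2-K1 and H2-Q7, from 0.632 and 2.16 summed CPM at P1 to 17.7 and 6.36 at P7 and 94.7 and 96.98 at P21. The part of these markers in the class I results was not tested. In such sums, more cells with the RNA and more RNA per cell are mixed, and the shares of cells are given next.

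An H2-Q7 read was found in 35 of 181 and 13 of 122 Car4- cells at P1, in 91 of 206 and 64 of 116 at P7 and in 142 of 272 and 104 of 268 at P21. With every cell thinned to the same 50000 reads, the shares were 14.4% and 5.74% at P1, 36.9% and 53.1% at P7 and 45.6% and 34.3% at P21. Thinning matches reads and not library complexity, and the median number of genes per cell over all cells of a mouse was from 1831 in the male P21 mouse to 4152 in the female P1 mouse. Among cells with a read, the median level of H2-Q7 was 104.7 and 66.9 CPM at P1, 206.3 and 254 at P7 and 321.5 and 424.1 at P21. H2-K1 was read in most cells at every postnatal age, in 65.0% and 60.7% of thinned cells at P1 and 87.1% and 77.2% at P21, and its median in cells with a read went from 406.9 and 289.0 CPM to 1985 and 1997. H2-D1 was read in at least 80.6% of thinned cells of every normal-air mouse from P1 on. Both mice of P7 and of P21 were above both mice of P1 for H2-Q7 and H2-K1, in the share of cells and in the median level.

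**Figure D2:**
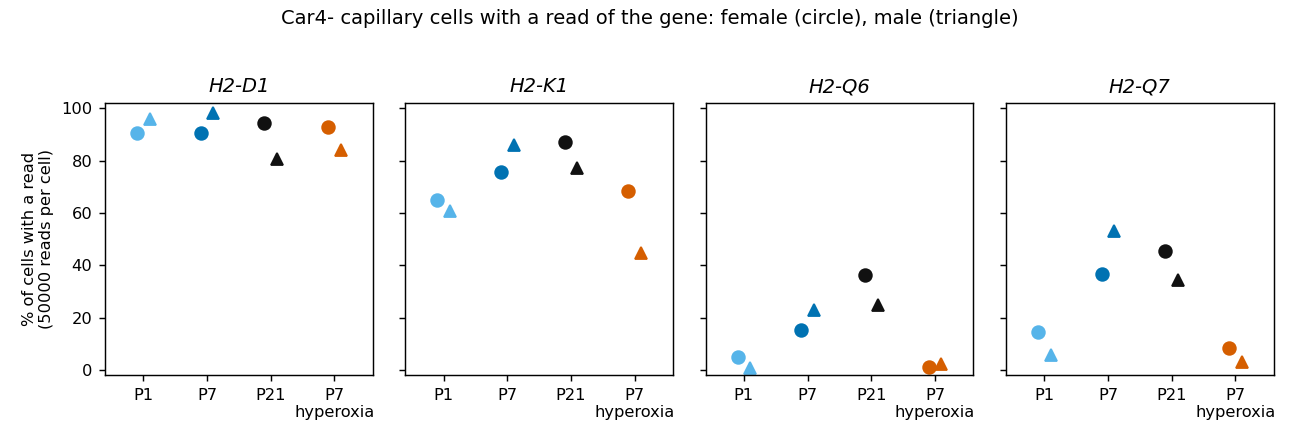
Percent of Car4- capillary cells with at least 1 read of the gene after thinning to 50000 reads per cell, by group; each point is 1 mouse (circle female, triangle male). H2-D1 and H2-K1 are read in most cells at each normal-air age, whereas H2-Q7 spans from 3.03% in the male hyperoxia mouse to 53.1% in the male P7 mouse.

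H2-Q6 and H2-Q7, which lie next to each other and share sequence, were often read in the same cells. Of the cells with an H2-Q6 read, 28 of 42 in the female P7 mouse, 23 of 29 in the male P7 mouse, 82 of 115 in the female P21 mouse and 44 of 73 in the male P21 mouse also had an H2-Q7 read. Of the cells with H2-Q7, 30.8%, 35.9%, 57.7% and 42.3% in those mice had H2-Q6. The part that their shared sequence has in these counts was not tested.

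Per kilobase of annotated exon, the order of the levels in Car4- capillaries at P1 was B2m (2194 ± 299 CPM per kb, SD, n = 2), H2-D1 (625.5 ± 72.8), H2-K1 (130.9 ± 15.9), H2-T23 (45.6 ± 6.21) and H2-T22 (11.6 ± 1.34). H2-Q7, Tap1, H2-Q6 and H2-Q4 followed between 8.46 and 3.66 CPM per kb, and the first 3 of these did not differ beyond their spread. At P21 B2m (4690 ± 649), H2-D1 (1394 ± 335) and H2-K1 (723.7 ± 102.5) kept the first 3 places, but H2-Q6 (100.6 ± 9.53) stood above H2-T23 (73.8 ± 7.45) and H2-Q7 (60.2 ± 4.12). The order of these lower places depends on the length used. The annotated exons of H2-Q7 cover 4265 bases and its longest coding transcript 1523, whereas both are 2085 for H2-Q6. In CPM not divided by length, H2-Q7 (269.2 and 244.4) was above H2-Q6 (223.7 and 195.6) at P21. The light chain was therefore above each heavy chain by this measure at both ages.

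Around birth, the fitted levels of all 9 genes were lower in embryonic EC of E18.5 than in Car4- capillaries of P1. Of all genes tested, 49% had a higher fitted level in embryonic EC. H2-T23 was the gene called (1 of 9, against 0.494% of all genes), with 15.8 and 32.3 CPM in embryonic EC and a log2 fold change of −2.52 ± 0.44 (edgeR adjusted p = 0.0177). Leaving out the female E18.5 mouse ended the call (edgeR adjusted p = 0.147). H2-K1 was at 86.5 and 139.9 CPM in embryonic EC (−1.83 ± 0.39 on the log2 scale, edgeR adjusted p = 0.0581) and H2-Q7 at 0.803 and 7.13 (−3.23 ± 0.72, edgeR adjusted p = 0.0762). H2-D1 differed between the E18.5 mice, with 407 and 1160 CPM. In the run that the female cells of both ages shared, H2-T23 was at 15.8 CPM in 134 embryonic cells and 147.5 in 180 Car4- cells. The age and the label change together here, so they cannot be told apart. The 13 cells labelled Car4- at E18.5, all from the female mouse, had 283.3 CPM of H2-K1 and no read of H2-Q6, H2-Q7 or Tap1.

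Proliferative EC, the cycling cells, carry 1 label from E18.5 to P7. All 9 genes were higher in both P7 mice than in both E18.5 mice, as were 19.1% of all genes tested. H2-K1 went from 54.9 and 53.5 CPM at E18.5 to 506.4 and 380.7 at P1 and 900.5 and 917.6 at P7, a log2 fold change from E18.5 to P7 of 4.01 ± 0.46 (edgeR adjusted p = 0.0133). It was the 1 gene of the 9 that was called, against 0.0458% of all genes. Without the female or without the male mouse of E18.5 the edgeR adjusted p was 0.160 and 0.124. H2-Q7 had 14.2 and 15.8 CPM at E18.5 and 205.1 and 218.4 at P7 (3.76 ± 0.58 on the log2 scale, edgeR adjusted p = 0.0747). H2-Q6 had 1 read in all 166131721 reads of proliferative EC at E18.5 and 190.2 and 96.7 CPM at P7. In the run shared by the male cells, H2-K1 was at 54.6 CPM in 83 cells of E18.5 and 1028 in 33 cells of P7.

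In venous EC, H2-K1 showed the same order, from 23.4 and 3.91 CPM at E18.5 (11 cells per mouse) to 398.1 and 262.5 at P1 and 802.4 and 904.2 at P7. The log2 fold change from E18.5 to P7 was 5.69 ± 0.85 and was not called (edgeR adjusted p = 0.0544). None of the 9 genes was called by edgeR, against 0.0325% of all genes, with 3 at an unadjusted p under 0.05 (11.2% of all genes) and 2 called by DESeq2, and 5 of the 9 were higher in both P7 mice, as were 27.4% of all genes. H2-T23 and B2m did not follow H2-K1. H2-T23 was at 333.7 and 138.3 CPM at E18.5 and 209.3 and 209.6 at P7, and B2m at 848.1 and 1126 and at 1003 and 886.6. H2-Q6 had no read in 19213872 reads at E18.5, which allows up to 0.156 CPM (3 reads) by counting error of reads only. It was at 18.4 CPM over both P7 mice, with a read in 9.52% of 21 female and 21.7% of 23 male cells. A gene read in so few cells can be missed in 11 cells per mouse, so no fold is given. The number of the 9 called changed when 1 mouse was left out, and the share of all genes called in those fits is not given.

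Car4+ capillaries, the large thin capillary cells of the gas exchange surface, had the classical genes. Their H2-Q6 and H2-Q7 values were below those of Car4- capillaries of the same normal-air mice, a difference not called at P1 and P7. H2-Q4 did not have this order in every mouse, with 15.5 CPM in the female P7 mouse against 11.2 in its Car4- capillaries. H2-K1 was at 319.6 and 329.5 CPM at P1, 657.2 and 202.8 at P7 and 1326 and 1473 at P21. H2-Q7 was at 3.42 and 0.149 CPM at P1, 39.7 and 12.9 at P7 and 72.6 and 29.5 at P21, and H2-Q6 at 43.4 and 17.6 at P21. From P1 to P21, 7 of the 9 genes were higher in both mice, as were 19.3% of all genes. None was called by edgeR (0.00814% of all genes), with 4 at an unadjusted p under 0.05 (5.21% of all genes) and 2 called by DESeq2. DESeq2 also called more of all genes than edgeR here, and its share is not given. Neither P21 against P7 (0.00814% of all genes called, 3 of the 9 and 5.24% of all genes at an unadjusted p under 0.05, and 0 of the 9 called by DESeq2) nor P7 against P1 (0% called, 0 of the 9 and 6.28% of all genes at an unadjusted p under 0.05, and 0 of the 9 called by DESeq2) gave a call among the 9. The male P7 mouse had 24 Car4+ cells and the male P1 mouse 17. In 18 CD31-sorted Car4+ cells of the male P7 mouse from 1 run, H2-K1 was at 449.8 CPM.

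Subtypes were compared within mice, using the 4 normal-air mice of P1 and P7 with the mouse as a term. If the labels came from the same reads the p-values are not independent of the labels. Against Car4- capillaries, the log2 fold changes of Car4+ capillaries were −4.97 ± 1.37 for H2-Q6 (edgeR adjusted p = 0.0900) and −3.35 ± 1.24 for H2-Q7 (edgeR adjusted p = 0.238), while H2-K1 (−0.45 ± 0.26) and H2-D1 (0.08 ± 0.34) were nearer to 0, and the median over all genes was −0.29. No gene of the 9 was called by edgeR, against 1.44% of all genes, with 3 at an unadjusted p under 0.05 (12.4% of all genes) and 2 called by DESeq2. In this comparison too DESeq2 called more of all genes than edgeR, and its share is not given. In proliferative EC (0.322% of all genes called), venous EC (0.413%) and arterial EC I (0.203%), edgeR and DESeq2 called none of the 9 against Car4- capillaries, and an unadjusted p under 0.05 was found for 1, 1 and 0 of the 9, against 7.32%, 7.58% and 12.3% of all genes. The gene was H2-T23 in both, lower in proliferative EC (−1.21 ± 0.42, edgeR adjusted p = 0.413) and higher in venous EC (1.03 ± 0.42, edgeR adjusted p = 0.492). Its values in P7 mice were 60.0 and 79.1 CPM in Car4- capillaries, 50.9 and 24.2 in proliferative and 209.3 and 209.6 in venous EC.

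Lymphatic EC, which line the lymph vessels, had less of the classical genes and B2m at P1 than Car4- capillaries of the same mice. H2-K1 was at 152.4 and 148.5 CPM, H2-D1 at 562.4 and 528.5 and B2m at 762.7 and 621.3, in 26 and 13 cells. In Car4- capillaries of the same mice, H2-K1 was at 417.5 and 351.5 CPM, H2-D1 at 1480 and 1746 and B2m at 1705 and 2069. EdgeR called 4 of the 9 genes lower, against 2.83% of all genes: B2m (−1.66 ± 0.26 on the log2 scale, adjusted p = 0.000983), H2-K1 (−1.65 ± 0.35, adjusted p = 0.0118), H2-D1 (−1.88 ± 0.46, adjusted p = 0.0307) and H2-Q6 (adjusted p = 0.0447). H2-Q6 had no read in 32878963 reads of lymphatic EC, which allows up to 0.0912 CPM, but in Car4- capillaries it was at 31.7 CPM in the female and 0.403 in the male mouse of P1. Its call rests on the female mouse, without which the edgeR adjusted p was 0.729, so no fold is given. H2-T22 (0.02 ± 1.10) and H2-T23 (−0.37 ± 0.52) were not called, with 29.2 and 57.1 CPM and 112.4 and 78.8 CPM in lymphatic EC. The comparison rests on the lymphatic cells of the 2 mice of P1, and B2m was the 1 call that held without the female mouse of P1 or without the female mouse of P7, with 2 calls without the male mouse of P7 and 3 without the male mouse of P1. With no mouse term in the model the edgeR adjusted p of B2m was 0.0832. General EC markers were also lower in lymphatic EC (1698 and 1768 summed CPM at P1, against 3768 to 4149 in Car4- capillaries), and the part of this in the class I result was not tested. The order at P1 was not seen under hyperoxia at P7. In the female hyperoxia mouse, with 14 lymphatic cells, H2-K1 was at 593.4 CPM in lymphatic EC and 418.9 in Car4- capillaries. H2-D1 was at 1371 and 1173 there, and B2m at 1177 and 1196. The male hyperoxia mouse had 6 lymphatic cells, with H2-K1 at 810.9 CPM against 321.4. These values were not tested.

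**Figure D3:**
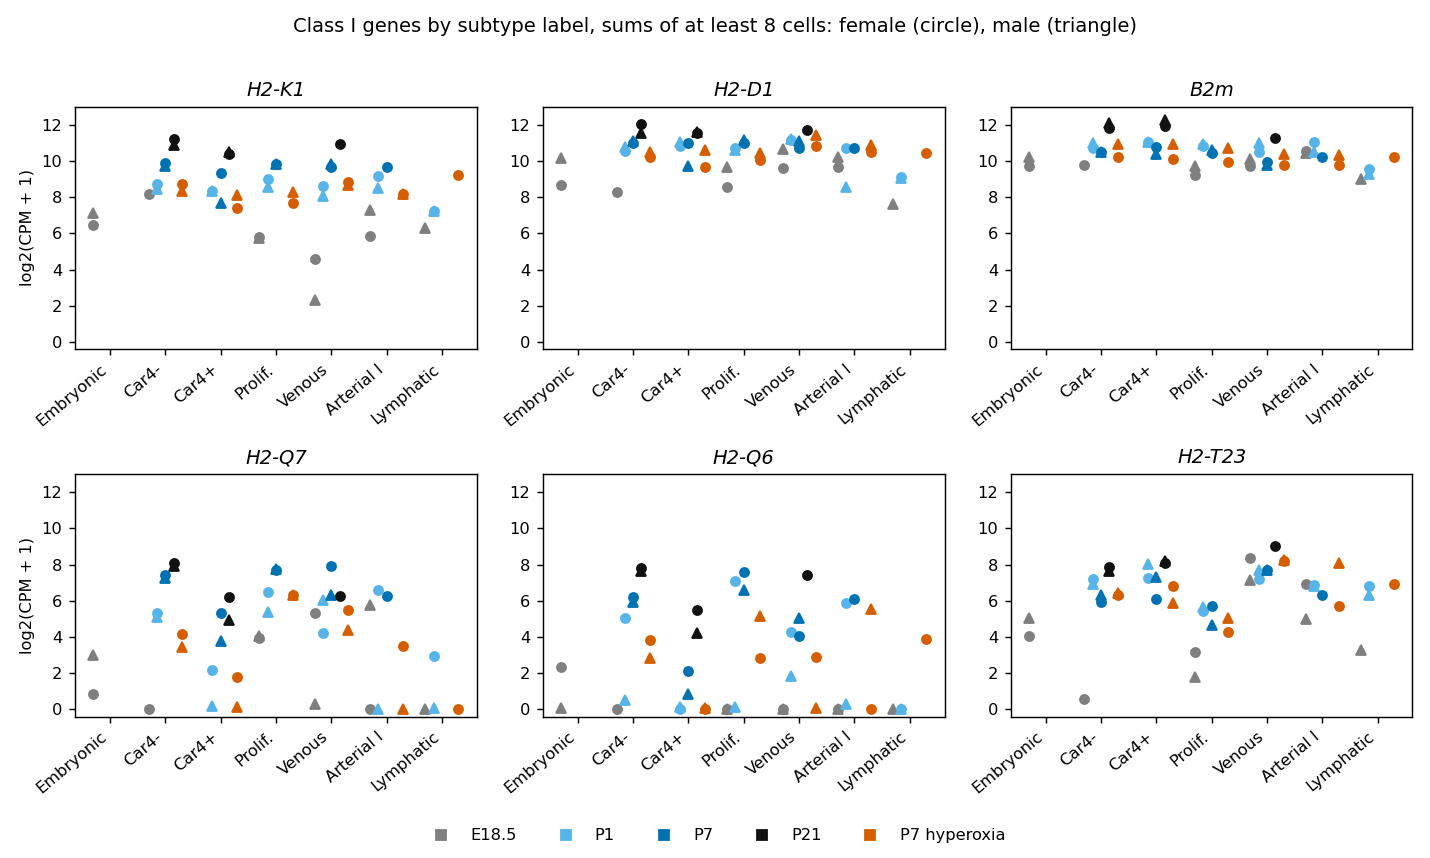
Levels of 6 class I genes as log2(CPM + 1) by subtype label, 1 point per mouse (circle female, triangle male) with at least 8 cells, coloured by group. H2-D1 is at 193.1 CPM or above and B2m at 508.7 CPM or above in every sum, H2-Q6 is at 0 in lymphatic EC of P1, and the highest H2-T23 point is the venous EC sum of P21 (517.4 CPM).

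Other genes of the pathway were counted as lists, which were chosen with earlier results known. Of 23 genes of peptide processing, loading and regulation (from the peptide transporter and immunoproteasome to NLRC5 and the interferon receptors), edgeR called 0 of 23 in Car4- capillaries from P1 to P21, with 9 at an unadjusted p under 0.05 (13.5% of all genes). Of the 23, 21 had a log2 fold change above 0, as had 51.2% of all genes. Their median was 0.80, against a median of 1.14 for the 9 genes and 0.03 for all genes tested. Irf1, which encodes an interferon-regulated transcription factor, was at 408.4 and 168.2 CPM at P1 and 758.6 and 930.3 at P21. In lymphatic EC against Car4- capillaries 3 of 23 were called lower, in a comparison that called 2.83% of all genes: Psmb8 (−3.68 ± 0.76, edgeR adjusted p = 0.00881) and Psmb10 (−2.63 ± 0.59, edgeR adjusted p = 0.0167), which encode immunoproteasome subunits, and Ifngr1 (−1.92 ± 0.37, edgeR adjusted p = 0.00578), which encodes a chain of the interferon gamma receptor. Of 20 other class I and class I-like genes, 13 were rows of the table and 10 to 12 passed the filter on low counts. H2-Q5, a further Q region gene, was called lower in embryonic EC than in Car4- capillaries of P1 (edgeR adjusted p = 0.0290) and was at 2.83 and 2.72 CPM at P1, 14.7 and 16.9 at P7 and 53.8 and 32.3 at P21 in Car4- capillaries. Cd1d1, which presents lipids, was called lower in Car4+ than in Car4- capillaries (−2.93 ± 0.68, edgeR adjusted p = 0.0380).

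**Figure D4:**
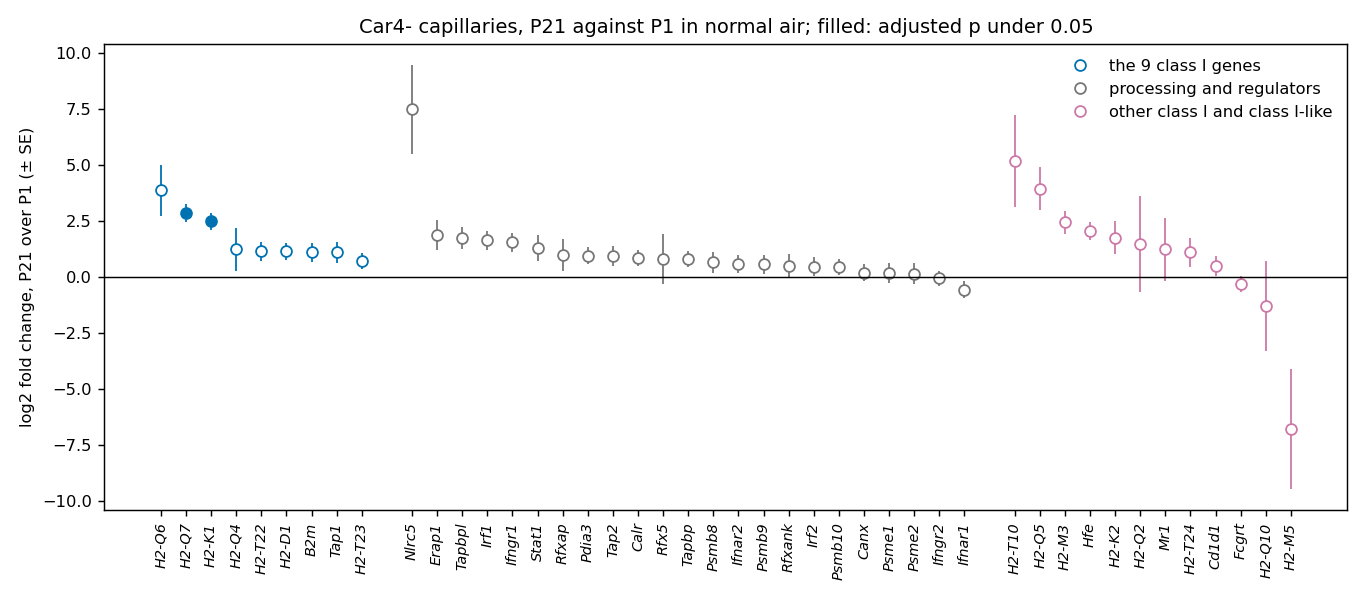
Log2 fold change with its SE (P21 over P1, edgeR, Car4- capillaries) for the 9 class I genes, 23 processing and regulator genes and 12 other class I or class I-like genes; filled points have an adjusted p under 0.05. H2-Q7 (2.85) and H2-K1 (2.48) are the filled points, and fitted values of genes with almost no reads at P1, such as Nlrc5, have wide errors.

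With the 9 genes themselves left out of the ranking, the genes whose levels were most like H2-Q7 over 48 mouse and class sums were Gbp3 (Spearman rho 0.69), Gbp2 (0.68), Gbp4 (0.66), Ptprj (0.65) and Cyyr1 (0.63), among 9144 genes with a mean of at least 10 CPM. For H2-K1, again among genes outside the 9, they were Gbp4 (0.78), Sp100 (0.74), Gcnt2 (0.72), Tgtp2 (0.71) and Atp2a3 (0.71). The Gbp genes and Tgtp2 encode interferon-inducible GTPases. Among the 9 genes, H2-K1 was most like H2-Q6 (0.84) and H2-D1 (0.76) and H2-Q7 was most like H2-Q6 (0.71) and H2-K1 (0.64), while H2-Q7 and H2-T23 had a rho of 0.06. These are descriptions: sums of 1 mouse share animal and run.

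Under hyperoxia at P7 in Car4- capillaries, the contrast on which H2-Q7 was selected, H2-Q7 was at 17.2 and 10.01 CPM against 169.5 and 150.8 in normal air (log2 fold change −3.59 ± 0.41). EdgeR called 0.0136% of all genes in this contrast, H2-Q7 among them. H2-K1 was at 418.9 and 321.4 CPM against 940.4 and 857.5 (−1.31 ± 0.35), close to its values at P1. H2-D1 was at 1173 and 1421 CPM against 2014 and 2246 (−0.74 ± 0.38), and H2-Q6 at 13.4 and 6.21 against 74.0 and 60.6 (−2.82 ± 1.10). Tap1 was at 40.9 and 47.2 CPM against 92.2 and 51.7. These 5 genes were lower in both hyperoxia mice, as were 15.6% of all genes tested.

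B2m, the shared light chain, was at 1196 and 1950 CPM under hyperoxia and 1421 and 1451 in normal air, and the mice overlapped. H2-T22 (76.4 and 40.1 against 50.9 and 64.9), H2-T23 (79.0 and 85.3 against 60.0 and 79.1) and H2-Q4 (5.84 and 1.29 against 11.2 and 5.20) overlapped too. In the run shared by the male cells, H2-Q7 was at 10.01 CPM in 132 hyperoxia cells and 179.5 in 111 normal-air cells, H2-K1 at 321.4 and 1063, and B2m at 1950 and 1571. Tap1 had the opposite order there, with 47.2 CPM under hyperoxia and 36.0 in normal air. The share of thinned cells with an H2-Q7 read was 8.50% and 3.03%, against 36.9% and 53.1% in normal air. The 16 and 7 hyperoxia cells that had a read held a median of 147.5 and 230.6 CPM. For H2-K1 the shares were 68.6% and 44.7% against 75.7% and 85.8%. Summed MHC class II markers were at 0.997 and 3.19 CPM under hyperoxia against 17.7 and 6.36, leukocyte markers at 7.84 and 24.3 against 10.8 and 38.3, and epithelial markers at 94.7 to 152.4 against 26.0 to 62.2, and their part in the values was not tested.

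The same description in proliferative EC, venous EC and Car4+ capillaries shows H2-Q6 and H2-Q7 lower in both hyperoxia mice in each. Arterial EC I had 4 cells in the male normal-air mouse of P7, and lymphatic EC had 1 and 5 cells in the normal-air mice. Neither class was compared. In arterial EC I, H2-Q6 was at 0 and 45.3 CPM under hyperoxia and at 68.1 in the female normal-air mouse. In proliferative EC, H2-Q7 was at 79.6 and 79.8 CPM against 205.1 and 218.4, and H2-K1 at 200.7 and 307.0 against 900.5 and 917.6, and 6 of the 9 genes were lower without overlap, as were 16.4% of all genes. In venous EC, H2-K1 was at 460.8 and 405.3 CPM against 802.4 and 904.2 and H2-Q7 at 43.5 and 19.6 against 241.7 and 78.2. There 3 of the 9 were lower (16.5% of all genes), and H2-T22 and H2-T23 were higher in both mice, H2-T23 at 292.2 and 304.7 against 209.3 and 209.6. The share of all genes higher in both hyperoxia mice of venous EC was not counted. In Car4+ capillaries 4 of the 9 were lower (12.4% of all genes), with H2-Q7 at 2.42 and 0.101 CPM against 39.7 and 12.9, while H2-K1 overlapped at 170.9 and 281.5 against 657.2 and 202.8. That overlap comes from the male normal-air mouse. In the run shared by the male CD31-sorted Car4+ cells, H2-K1 was at 281.5 CPM in 37 hyperoxia cells and 449.8 in 18 normal-air cells. B2m overlapped in all 4 classes. These comparisons take the same 4 mice, so the classes are not separate evidence.

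**Figure D5:**
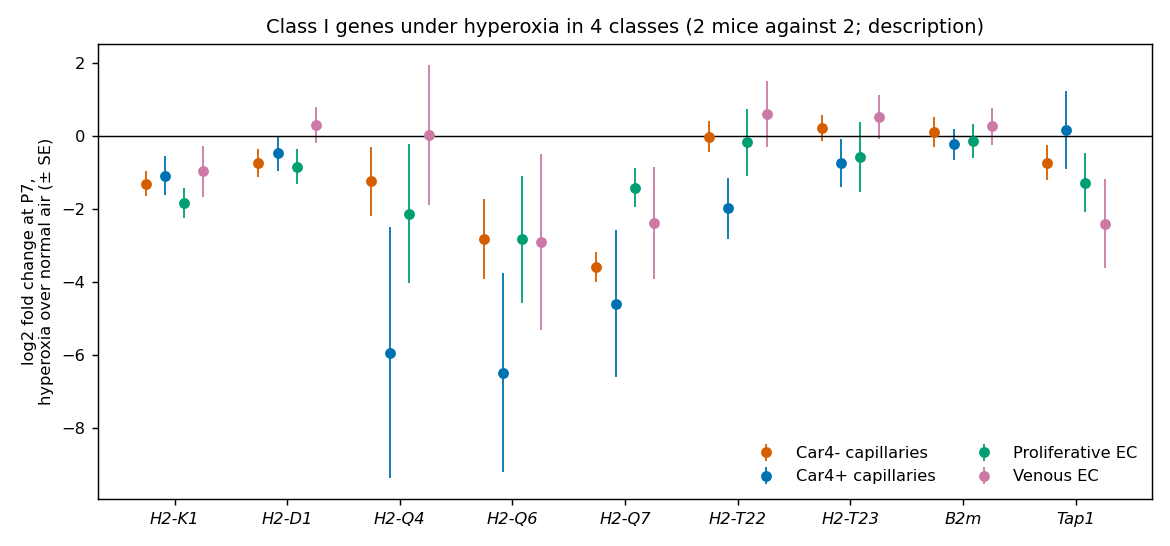
Log2 fold change with its SE (hyperoxia over normal air at P7, edgeR) of the 9 class I genes in 4 classes, 2 mice against 2 in each. H2-K1, H2-Q6 and H2-Q7 lie below 0 in every class and B2m lies near 0 (0.11 in Car4- capillaries); wide bars belong to genes with few reads.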

How the data were processed

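RNA was measured in single cells sorted into plates, as Tn5-cut libraries without molecular identifiers, per the labels' protocols. The deposited values are raw counts: whole numbers of reads for each gene in each cell, not scaled by the authors. The submitters' processing notes name STAR 2.5.2b, HTSeq 0.10 and GRCh38, a human build name on mouse samples, so the build behind the counts is uncertain and positions are those of the annotations named.

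Counts were summed per mouse and class; sums of at least 8 cells were tested. EdgeR 4.0.16 (TMM, filterByExpr, quasi-likelihood F test) was fitted to all genes, with all usable groups of a class in 1 model, or with mouse and class as terms for subtypes. P-values were adjusted by Benjamini and Hochberg over all genes tested, and called under 0.05. CPM are reads per 1000000 of the sum. With 2 mice per group precision is limited by the mice, not depth. Limits at 0 reads (3 reads over the group) cover counting error of reads only, and not the sampling of cells or mice. Alternatives were DESeq2 1.42.0, limma 3.58.1 on log2(mean CPM + 1), RLE, no filter, CD31-gate cells, thinning to 50000 reads per cell (11 shallower cells left out), a sex term, no mouse term, sums of at least 4 cells, near-identical Q rows summed, and leaving out each mouse. The test was checked on simulated data. No cell had values identical to another. The 9 genes and the lists were chosen with earlier results of these data known. The text names all 9 genes, genes of the lists that were called, Irf1 for its level, and the 5 genes most like H2-Q7 and H2-K1.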

Additional observations from a re-analysis of the deposited data

Results flagged for a closer look

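Several genes differed in opposite directions in 2 classes under the same contrast, with both mice of one group above both of the other in each class. The differences between the classes were not tested, and each group has 2 mice. From P1 to P7 in Car4- capillaries, 21.1% of all genes tested were higher in both P7 mice. Under hyperoxia in Car4+ capillaries, 12.4% of all genes tested were lower in both mice. The share of all genes with opposite directions in 2 classes was not counted. The values below are log2 ratios of the mean CPM.

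From P1 to P7, H2-D1 was higher in Car4- capillaries (0.40) and proliferative EC (0.45) and lower in venous EC (−0.28). H2-Q4 was higher in proliferative EC (1.81) and lower in venous EC (−0.48), at levels of 12.1 CPM or less in the P1 mice. H2-T23 was higher in venous EC (0.26) and lower in Car4- capillaries (−0.92).

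Under hyperoxia at P7, H2-T22 was higher in venous EC (0.59) and lower in Car4+ capillaries (−1.63). Tap1 was higher in Car4+ capillaries (0.43) and lower in Car4- capillaries (−0.71) and proliferative EC (−1.26). In the run shared by the male CD31-sorted cells, both capillary directions were reversed. Tap1 was at 27.6 CPM under hyperoxia and 65.9 in normal air in Car4+ capillaries, and at 47.2 and 36.0 in Car4- capillaries. In proliferative EC Tap1 was lower in that run too, at 26.3 against 67.8.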

How the results depend on the processing

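The numbers of the 9 genes called varied with the tool. DESeq2 called 2 in Car4- capillaries for P7 against P1, 3 for P21 against P7, 2 in Car4+ capillaries for P21 against P1, 4 in proliferative EC, 2 in venous EC and 3 for embryonic EC against Car4- capillaries, where edgeR called 0, 0, 0, 1, 0 and 1. It called 2 for Car4+ and 7 for lymphatic against Car4- capillaries, where edgeR called 0 and 4. Over all genes DESeq2 called more in every comparison, such as 398, 698 and 890 for P7 against P1, P21 against P7 and P21 against P1 in Car4- capillaries, where edgeR called 0, 39 and 54, 198 against 6 in proliferative EC, 846 against 4 in venous EC, 572 against 74 for embryonic EC and 1225 against 405 for lymphatic EC. Without the filter, and with thinned cells, 1 was called in Car4+ capillaries for P21 against P1, 3 in proliferative EC, 1 in venous EC and 3 for embryonic EC. Thinned cells gave 2 calls for Car4+ against Car4- capillaries and limma gave 1, and limma and RLE each gave 1 in venous EC. Without the mouse term 2 were called in lymphatic EC. Leaving out 1 mouse at a time gave 0 to 1 calls for P7 against P1 and for P21 against P7 in Car4- capillaries, 0 to 3 for P21 against P1 and in proliferative EC, 1 to 2 in venous EC, 0 to 2 for embryonic EC, 0 to 1 for Car4+ and 1 to 3 for lymphatic against Car4- capillaries. The cause was not tested, and the share of all genes called in the fits without 1 mouse is not given. Every called gene kept its direction in every alternative run. For P21 against P1 in Car4- capillaries the log2 fold change ranged from 2.65 to 3.22 for H2-Q7 and from 2.40 to 2.53 for H2-K1. Under hyperoxia H2-Q7 ranged from −4.02 to −2.96, while H2-T22 (−0.53 to 0.36) and B2m (−0.31 to 0.43) took both signs. The labels give sex and no replicate number; with sex as the replicate block the calls were the same in number in every age comparison (2 for P21 against P1 in Car4- capillaries, with 2.84 for H2-Q7). That the mice of 1 sex are paired is not stated.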
